A study of Mus musculus with 8 samples.

Results

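The genes described here encode 10 subunits of the TIP60 complex: Kat5, Ep400, Brd8, Epc1, Epc2, Dmap1, Ing3, Yeats4, Ruvbl1 and Ruvbl2. They were chosen by name as members of the complex, not by a rule on their values, though with earlier results of these data known. They are 10 of the 55401 genes counted. All 10 passed the filter on low counts that left 17532 genes for testing. RNA was sequenced from mouse embryonic stem cells (ESCs) in 8 libraries, namely 2 of Control, 3 of Zzz3 auxin and 3 of Yeats2 auxin. In the auxin groups, ZZZ3 or YEATS2 carried an auxin-inducible degron (AID), a tag through which the plant hormone auxin has the protein degraded, and auxin was given at 500 µM for 24 h. ZZZ3 and YEATS2 are subunits of ATAC, a different acetyltransferase complex, so that the comparison asks whether the mRNAs of TIP60 subunits differ once ATAC is disrupted. All cells were kept in medium with serum, leukaemia inhibitory factor and 2 inhibitors (2i), and under G418 to retain Tir1, the plant protein that auxin-dependent degradation needs. The labels give neither the line nor the treatment of the controls. The study's formulas call the reference wild type, whereas its supplement speaks of the AID lines with solvent or auxin. On these sources the tag, the line and auxin itself cannot be told apart from the loss of either protein. Because the degron acts on the protein, the mRNA of Zzz3 or Yeats2 does not check the labels.

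TIP60, also known as NuA4, joins in mammals a histone acetyltransferase to a machine that exchanges histones. Its catalytic subunit KAT5, of the MYST family, acetylates H4, H2A and H2A.Z, and its EP400 subunit is a SWI2/SNF2-type ATPase that places H2A.Z into nucleosomes. The complex acts at active promoters and in the repair of DNA breaks, and mouse ESCs need it for self-renewal.

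Library depth was 14315120 to 27884704 reads assigned to genes, lowest in Zzz3 auxin replicate 3, and each subunit gene was covered by 522 to 9422 reads per library. The 8 ESC markers summed to 4548 to 5341 CPM (reads per 1000000 assigned reads, with TMM-scaled library sizes) in each library, against 18.1 to 29.1 CPM for 12 markers of other cells, of which 6 lay below 1 CPM in every Control library, 6 in every Zzz3 auxin library and 7 in every Yeats2 auxin library. None of the ESC markers was called by edgeR (adjusted P under 0.05) in either comparison with control. Of all tested genes, edgeR called 0.753% in Zzz3 auxin and 0.445% in Yeats2 auxin. DESeq2 called 1 ESC marker in Zzz3 auxin, Pou5f1, where it called 8.21% of the genes it gave an adjusted P. Pou5f1 was at 348 ± 103 CPM (SD, n = 2) in Control, 535 ± 63.8 CPM (n = 3) in Zzz3 auxin and 509 ± 72.5 CPM (n = 3) in Yeats2 auxin and was higher in every auxin library than in either control, while Nanog was lower in every one (754 ± 25.7, 647 ± 57.8 and 623 ± 54.1 CPM). The log2 fold change of Pou5f1 was 0.62 (edgeR adjusted P = 0.106) and 0.55 (edgeR adjusted P = 0.213), and that of Nanog -0.22 (edgeR adjusted P = 0.319) and -0.28 (edgeR adjusted P = 0.325). Both were singled out after their values were seen, and their part in the subunit values was not tested. GC-rich genes (above 52.7% GC) and GC-poor genes (below 46.5%) did not run alike in all libraries. Taken as the median log2 level of GC-rich minus GC-poor genes, each against its mean over libraries, this difference was lowest for Control replicate 1 (-0.51) and highest for Zzz3 auxin replicate 3 (0.37), the other 6 libraries spanning -0.06 to 0.13. Values for the subunits are therefore also given with the dependence on GC content and on exon length removed from every library, and are then called corrected. CPM are shares of a library, so that fewer cells expressing a gene, less RNA of it per cell and a change of all other RNA cannot be told apart.

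The promoters of the 4 subunit genes with the highest uncorrected log2 fold changes against control are shown so that they can be compared with one another. After correction Epc1 and Epc2 were above Kat5 and Dmap1 in Zzz3 auxin, and Ing3 was above Dmap1. In Yeats2 auxin Epc1 and Ing3 were then above Kat5. Windows from 250 bases before to 50 bases after a RefSeq start (GRCm38.p6, the build called mm10) were at hand for 8 of the 10 genes, Kat5 and Ing3 with 2 starts each, and the remaining genes are Brd8 and Epc1. Windows are written 5′ to 3′ on the strand of the gene, and capitals mark the CCAAT box, the E-box CACGTG, the ETS core CCGGAAG and the CRE letters TGACGT, each searched on both strands. The Kat5 window, that of the upstream of its 2 starts, is at chr19:5610045-5610344 on the minus strand, the Dmap1 window at chr4:117682176-117682475 on the minus strand, the Ruvbl1 window at chr6:88465159-88465458 on the plus strand and the Ruvbl2 window at chr7:45434415-45434714 on the minus strand. In the gene annotation the Ruvbl1 start is also the first base of the gene, while those of Kat5, Dmap1 and Ruvbl2 lie inside the annotated gene. The annotated 5′ ends of Kat5 and Dmap1 fall within their windows. That of Ruvbl2, at 45438096, lies upstream of its whole window, which is thus not at the annotated start of the gene.
Kat5: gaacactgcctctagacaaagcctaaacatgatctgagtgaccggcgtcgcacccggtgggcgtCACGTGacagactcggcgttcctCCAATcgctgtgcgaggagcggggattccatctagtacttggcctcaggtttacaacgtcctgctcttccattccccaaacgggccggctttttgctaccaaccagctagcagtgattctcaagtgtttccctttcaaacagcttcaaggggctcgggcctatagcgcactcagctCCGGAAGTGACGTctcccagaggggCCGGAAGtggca
Dmap1: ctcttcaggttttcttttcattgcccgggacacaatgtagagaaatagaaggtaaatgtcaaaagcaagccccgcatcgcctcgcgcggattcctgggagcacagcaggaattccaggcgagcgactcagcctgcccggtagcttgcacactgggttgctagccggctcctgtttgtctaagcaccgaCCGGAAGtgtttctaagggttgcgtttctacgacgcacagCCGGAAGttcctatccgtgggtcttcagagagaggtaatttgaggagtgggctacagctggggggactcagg
Ruvbl1: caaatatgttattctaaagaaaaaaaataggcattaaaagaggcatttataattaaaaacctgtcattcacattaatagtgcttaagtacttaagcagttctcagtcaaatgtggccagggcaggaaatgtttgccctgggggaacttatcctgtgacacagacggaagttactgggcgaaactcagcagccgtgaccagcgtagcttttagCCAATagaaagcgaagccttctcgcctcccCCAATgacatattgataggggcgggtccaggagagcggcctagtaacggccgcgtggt
Ruvbl2: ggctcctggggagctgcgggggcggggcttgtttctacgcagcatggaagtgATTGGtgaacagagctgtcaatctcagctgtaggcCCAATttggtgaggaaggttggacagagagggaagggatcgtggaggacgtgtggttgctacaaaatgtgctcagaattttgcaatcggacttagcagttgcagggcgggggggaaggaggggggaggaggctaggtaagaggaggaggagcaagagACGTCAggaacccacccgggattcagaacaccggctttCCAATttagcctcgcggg

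The 4 windows held different sets of these letters. Kat5 had all 4 motifs, with CCGGAAG present 2 times and once directly followed by TGACGT, while the window of its other start (chr19:5609695-5609994, 69.7% GC) had TGACGT 1 time and none of the rest. Dmap1 had CCGGAAG 2 times and none of the other motifs. Ruvbl1 had CCAAT 2 times and nothing else, while Ruvbl2 had CCAAT 3 times, 1 of them read as ATTGG, and TGACGT 1 time, read as ACGTCA. No motif was thus in all 4 windows. The same letters were also in windows of other subunits, with CCAAT and TGACGT in both Ing3 windows and CCAAT in that of Yeats4. The windows of Ep400 and Epc2 had none of the motifs. Of all 10 windows of subunits, 6 held CCAAT and 5 TGACGT. Among 32851 promoter windows of the table, 37.4% held the CCAAT letters, 7.15% the E-box, 8.86% CCGGAAG and 7.51% TGACGT. The Ruvbl1 window had 45.7% GC, against 57% for Kat5, 55% for Dmap1 and 57.3% for Ruvbl2. A match is a string of letters and was not tested as a binding site.

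All 10 subunits were expressed in every library, at unequal levels. Per kb of exon, the mean over the 8 libraries was highest for Yeats4 (48.3 CPM per kb, range 40.9 to 53.8), whose product GAS41 reads acetylated histones through a YEATS domain and is shared with the SRCAP complex. It was followed by Ruvbl2 (41.1, range 21.1 to 63.8 CPM per kb), Brd8 (32.3 CPM per kb), Ruvbl1 (28.8 CPM per kb) and Epc2 (22.0 CPM per kb). Dmap1 (16.3 CPM per kb), Epc1 (14.6 CPM per kb), Ep400 (12.0 CPM per kb), Kat5 (12.0 CPM per kb) and Ing3 (9.40 CPM per kb) formed the lower end. Each gene's range overlapped that of its neighbour in this order. These ranges pool all groups and ignore that neighbours were measured in the same libraries. Their overlap therefore does not show whether neighbours differ, which was not tested. These levels placed the subunits between the 69.7th (Ing3) and the 94.0th percentile (Yeats4) of 17510 tested genes. Dividing by the longest transcript instead of all exon bases put Brd8 first, at 76.9 CPM per kb. The correction acts on each library's departure from a gene's mean over libraries, so it could hardly change this order and does not check it.

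**Figure D1:**
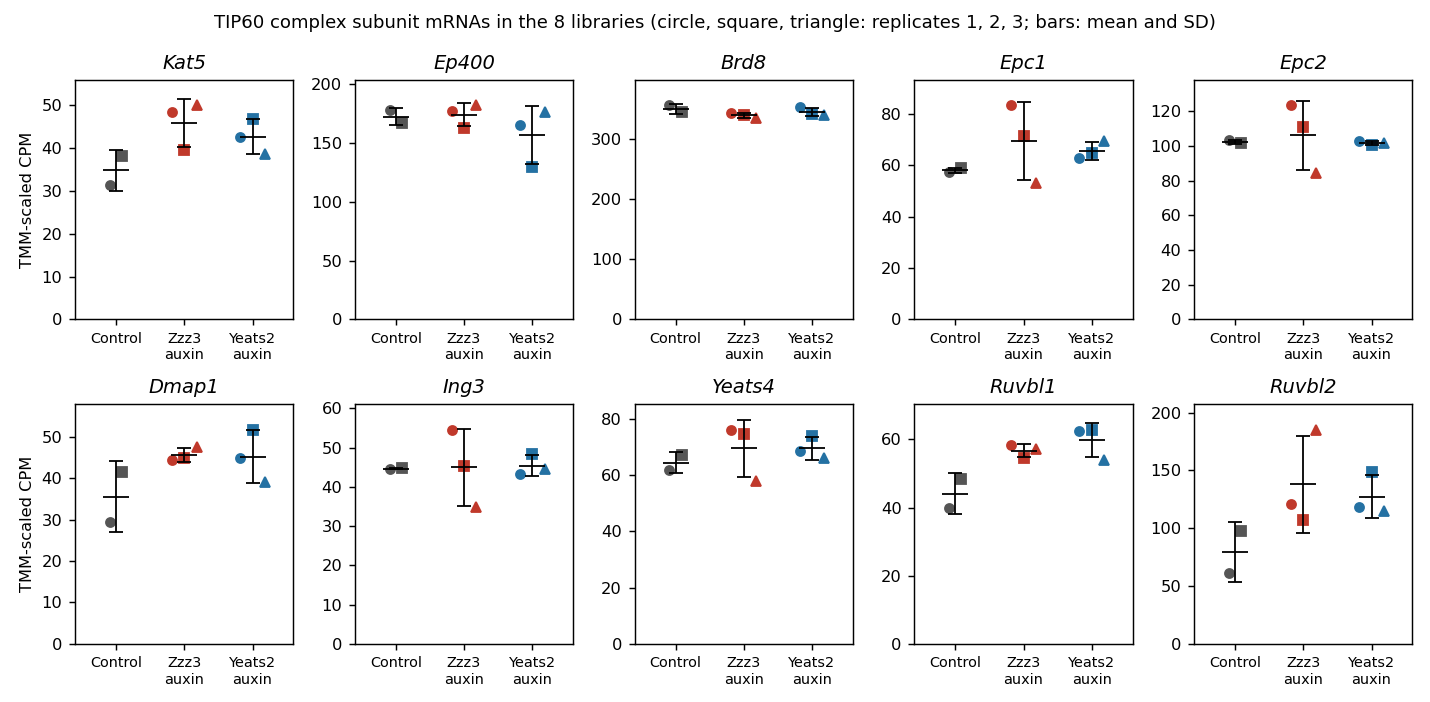
Expression of the 10 TIP60 subunit genes in TMM-scaled CPM (y axis, from 0) by group (x axis). Each point is 1 library, with circle, square and triangle for replicates 1, 2 and 3, and bars give the mean and SD; Brd8 spans 334 to 355 CPM over all libraries, whereas Ruvbl2 spans 61.2 to 185 CPM.

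Against control, the subunit mRNAs leaned upwards in both depletions without any passing the threshold. None of the 10 was called by edgeR (adjusted P under 0.05) in Zzz3 auxin, where 0.753% of all tested genes were called, nor in Yeats2 auxin, where 0.445% were. At an unadjusted P under 0.05 there were 3 of 10 in Zzz3 auxin (Kat5, Ruvbl1 and Ruvbl2) against 21.7% of all genes, and 2 of 10 in Yeats2 auxin (Ruvbl1 and Ruvbl2) against 14.6%. DESeq2 called 1 of 10 in Zzz3 auxin (Ruvbl2, adjusted P = 0.0295), where it called 8.21% of the 13452 genes it gave an adjusted P. It called none in Yeats2 auxin, where it called 3.02% of 13792 such genes. Changes were above 0 for 9 of 10 subunits in Zzz3 auxin and for 7 of 10 in Yeats2 auxin, against 51.1% and 48.9% of all genes. The median log2 fold change over the subunits was 0.19 for Zzz3 auxin, beside 0.01 for all genes, while that for Yeats2 auxin was 0.14, beside -0.01. After correction the medians were 0.20 and 0.16. Leaving out Control replicate 1 lowered them to 0.09 in either comparison, and leaving out Zzz3 auxin replicate 1 lowered the first to 0.09, while without Zzz3 auxin replicate 3 it was 0.29. Both comparisons use the same 2 control libraries.

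In Zzz3 auxin, 4 of 10 subunits (Kat5, Dmap1, Ruvbl1 and Ruvbl2) were higher in every library than in either control, against 16.8% of all genes, and Brd8 was lower in every library, against 18.9%. In Yeats2 auxin, 4 of 10 (Kat5, Epc1, Ruvbl1 and Ruvbl2) were higher in every library, against 19.3% of all genes, and none was lower in every library, against 21%. The labels do not say that replicates were separate cultures, so that the spread between them may be technical. Yeats2 auxin replicates 1 and 3 were far more alike than any other pair within a group. The chi-square of their read counts was 3.55 per gene, against 19.7 to 47.9 for the other pairs. The cause was not tested. SDs, intervals and counts for Yeats2 auxin treat its libraries as equal replicates and may understate the spread.

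**Figure D2:**
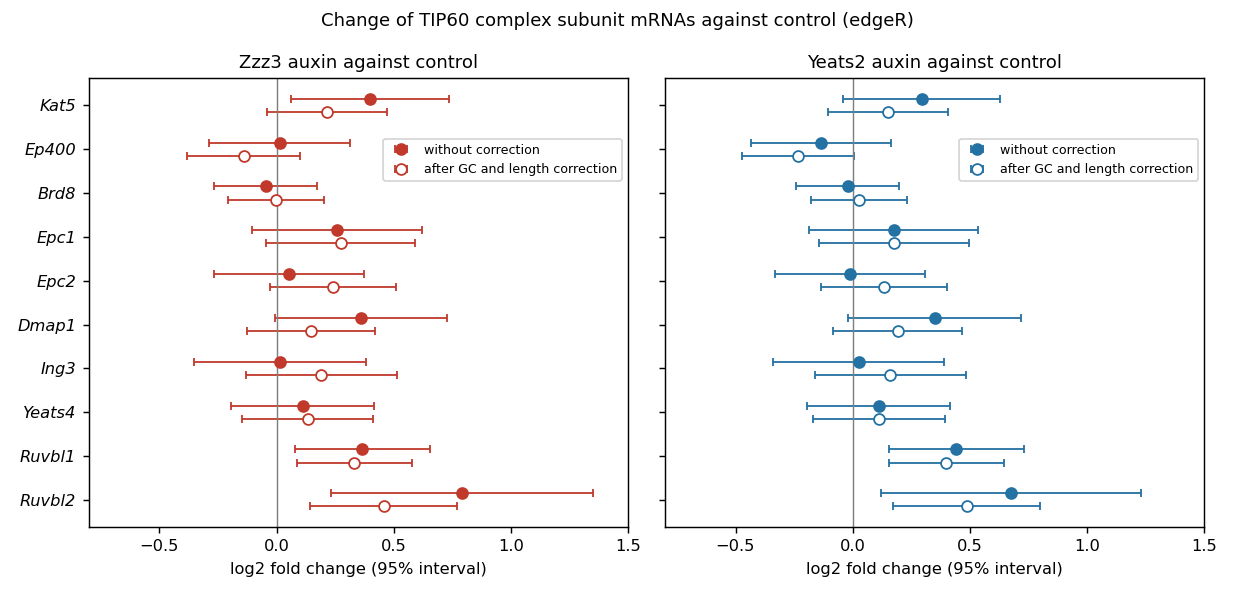
Log2 fold change of each subunit mRNA against control (x axis) with its 95% interval from edgeR, for Zzz3 auxin (left) and Yeats2 auxin (right). Filled points are without and open points after the correction for GC content and exon length; the intervals of Ruvbl1 and Ruvbl2 lie above 0 in both panels with and without it, whereas no adjusted P was under 0.05.

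Ruvbl2 had the highest log2 fold change of the subunits in both comparisons, and its partner Ruvbl1 came next in Yeats2 auxin, while in Zzz3 auxin Kat5, Ruvbl1 and Dmap1 lay close together. Ruvbl1 and Ruvbl2 encode AAA+ ATPases that assemble into a mixed ring, which is shared by TIP60, SRCAP, INO80 and the R2TP chaperone. Ruvbl2 (chr7:45421760-45438096, minus strand) was at 61.2 and 97.8 CPM in Control, 121, 107 and 185 CPM in Zzz3 auxin and 118, 148 and 115 CPM in Yeats2 auxin. Every auxin library was above both controls, but the controls lay far apart and Zzz3 auxin replicate 3 stood above all others. Its log2 fold change was 0.79 ± 0.25 (SE, 95% interval 0.23 to 1.35; edgeR adjusted P = 0.120) in Zzz3 auxin and 0.68 ± 0.25 (0.12 to 1.23; edgeR adjusted P = 0.252) in Yeats2 auxin. At 57.9% GC, Ruvbl2 was the most GC-rich subunit, and the trend at its GC content and length was -0.38 in Control replicate 1, its lowest library, and 0.36 in Zzz3 auxin replicate 3, its highest. After correction its log2 fold change was 0.46 (95% interval 0.14 to 0.77; edgeR adjusted P = 0.140) and 0.49 (0.17 to 0.80; edgeR adjusted P = 0.165), and no auxin library fell to the level of a control. Without Control replicate 1 it was 0.49 for Zzz3 auxin and 0.38 for Yeats2 auxin, and without Control replicate 2 it was 1.17 and 1.06. Without Zzz3 auxin replicate 3 it was 0.53 in Zzz3 auxin. Fitted without a filter on low counts, Ruvbl2 was called in both comparisons (edgeR adjusted P = 2.9e-05 and 7.8e-04). That fit called more genes in all than the main fit, and its SE for Ruvbl2 was 0.15 in either comparison. Of its exon bases, 10.7% are shared on the opposite strand with Gys1, a gene at 29.8 to 34.9 CPM, and 4.76% with Lhb, which had no read.

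Ruvbl1 (chr6:88465409-88497572, plus strand) was at 39.8 and 48.3 CPM in Control, 58.5, 54.6 and 57.2 CPM in Zzz3 auxin and 62.6, 62.8 and 54.0 CPM in Yeats2 auxin. All 6 auxin libraries were above both controls and lay close together. The log2 fold change was 0.36 ± 0.13 (SE, 95% interval 0.08 to 0.65; edgeR adjusted P = 0.148) and 0.44 ± 0.13 (0.15 to 0.73; edgeR adjusted P = 0.167). At 51.8% GC it moved little with the correction, to 0.33 (edgeR adjusted P = 0.164) and 0.40 (edgeR adjusted P = 0.144). Leaving out Control replicate 1 lowered it to 0.23 in Zzz3 auxin and 0.31 in Yeats2 auxin. The ratio of Ruvbl2 to Ruvbl1, both per kb, was 1.17 ± 0.227 (SD, n = 2) in Control, 1.59 ± 0.463 (n = 3) in Zzz3 auxin and 1.39 ± 0.157 (n = 3) in Yeats2 auxin, with overlapping libraries. Corrected, the mean ratios were 1.31, 1.44 and 1.40.

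**Figure D3:**
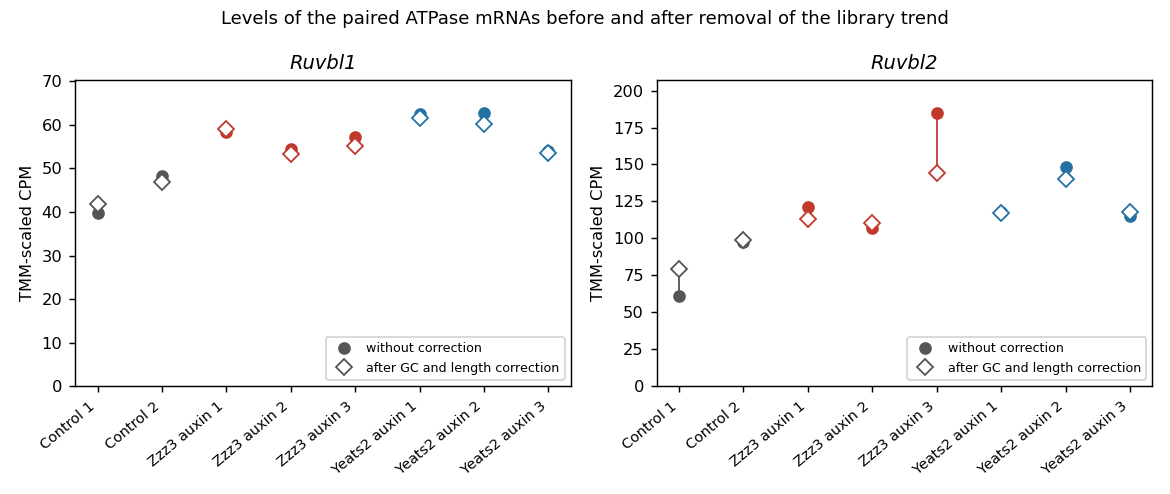
TMM-scaled CPM (y axis, from 0) of Ruvbl1 (left) and Ruvbl2 (right) in each library, filled without and open after the correction for GC content and exon length. Ruvbl2 moves from 61.2 to 79.5 CPM in Control replicate 1 and from 185 to 144 CPM in Zzz3 auxin replicate 3, while Ruvbl1 stays within a few CPM of its uncorrected value in every library.

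Of the acetyltransferase module, Kat5 had the highest uncorrected log2 fold change in both comparisons, but not after correction. KAT5 is the TIP60 enzyme itself and is not the protein depleted in these cells. Kat5 (chr19:5603014-5610237, minus strand) was at 31.5 and 38.2 CPM in Control, 48.3, 39.6 and 49.99 CPM in Zzz3 auxin and 42.6, 46.9 and 38.7 CPM in Yeats2 auxin. All auxin libraries were above both controls, by a small margin for Zzz3 auxin replicate 2 and Yeats2 auxin replicate 3. This made log2 fold changes of 0.40 ± 0.15 (SE, 95% interval 0.06 to 0.73; edgeR adjusted P = 0.168) and 0.29 ± 0.15 (-0.04 to 0.63; edgeR adjusted P = 0.391). At 54.8% GC, it was 0.21 and 0.15 after correction, with intervals that included 0, and without Control replicate 1 the uncorrected values were 0.26 and 0.16. Of its exon bases, 12.1% are shared with Rnaseh2c on the opposite strand, a gene at 8.74 to 24.1 CPM, and the strand setting of the counting is not given in the sources used here.

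Epc1 and Epc2 encode alternative forms of the scaffold that holds KAT5, ING3 and MEAF6 together. Epc1 (chromosome 18) was at 57.5 and 58.8 CPM in Control, 83.4, 71.6 and 53.3 CPM in Zzz3 auxin and 62.8, 64.8 and 69.4 CPM in Yeats2 auxin. It was above both controls in every Yeats2 auxin library, while Zzz3 auxin replicate 3 was the lowest of all 8. Its log2 fold change was 0.26 (95% interval -0.10 to 0.62) and 0.18 (-0.19 to 0.54), and after correction 0.27 (-0.05 to 0.59) and 0.18 (-0.14 to 0.49). In Zzz3 auxin it was 0.12 without Zzz3 auxin replicate 1 and 0.43 (edgeR adjusted P = 0.0881) without Zzz3 auxin replicate 3. Of its exon bases, 7.2% are shared with Gm28529 on the opposite strand, at 0.192 to 0.493 CPM. Epc2 was at 103 and 101.7 CPM in Control, 123, 111 and 84.3 CPM in Zzz3 auxin and 103, 101 and 101.6 CPM in Yeats2 auxin, with log2 fold changes of 0.05 and -0.01. Both genes thus ran from highest to lowest over the same 3 Zzz3 auxin libraries. Per kb, Epc2 exceeded Epc1 1.68 ± 0.0458 times (SD, n = 2) in Control, 1.46 ± 0.0493 times (n = 3) in Zzz3 auxin and 1.48 ± 0.0812 times (n = 3) in Yeats2 auxin, without overlap between the controls and the others. After correction the ratios were 1.54, 1.53 and 1.503 and the libraries overlapped. The cause of the uncorrected difference was not tested.

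Ing3, whose PHD finger binds H3K4me3, was at 44.6 and 44.7 CPM in Control, 54.6, 45.4 and 34.9 CPM in Zzz3 auxin and 43.3, 48.4 and 44.6 CPM in Yeats2 auxin. The auxin libraries lay on both sides of the controls, with log2 fold changes of 0.01 (95% interval -0.35 to 0.38) and 0.02 (-0.34 to 0.39). With Epc2 (43.0% GC), Ing3 (43.6% GC) was at the GC-poor end of the subunits, and both were lowest in Zzz3 auxin replicate 3. Corrected, the log2 fold change was 0.24 and 0.13 for Epc2 and 0.19 and 0.16 for Ing3, none called by edgeR.

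The remaining subunits belong to the histone exchange part built on EP400. Ep400 itself was at 178 and 167 CPM in Control, 177, 163 and 182 CPM in Zzz3 auxin and 165, 129 and 176 CPM in Yeats2 auxin. Only Yeats2 auxin replicate 2 stood apart, below all other libraries. Ep400 thus had log2 fold changes of 0.01 (95% interval -0.29 to 0.32) and -0.14 (-0.44 to 0.16), and -0.14 and -0.23 after correction. Without Yeats2 auxin replicate 2 the uncorrected Yeats2 auxin value was -0.013, and without Yeats2 auxin replicate 3 it was -0.23. Brd8 (chromosome 18), a bromodomain subunit, was at 355 and 344 CPM in Control, 343, 340 and 334 CPM in Zzz3 auxin and 352, 341 and 340 CPM in Yeats2 auxin. Although all 3 Zzz3 auxin libraries were below both controls, the log2 fold change was -0.05 (95% interval -0.26 to 0.17; edgeR adjusted P = 0.831), and it was -0.02 in Yeats2 auxin. Brd8 had the narrowest spread of the 10, its highest library being 1.06 times its lowest, against 3.03 times for Ruvbl2.

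Dmap1, which encodes a SANT domain protein that was found through its binding to the DNA methyltransferase DNMT1, was at 29.5 and 41.5 CPM in Control, 44.3, 44.9 and 47.6 CPM in Zzz3 auxin and 45.0, 51.7 and 39.1 CPM in Yeats2 auxin. Control replicate 1 was lowest, and Yeats2 auxin replicate 3 was below Control replicate 2. For Dmap1 the log2 fold change was 0.36 ± 0.17 (SE, 95% interval -0.01 to 0.73; edgeR adjusted P = 0.241) and 0.35 ± 0.17 (-0.02 to 0.72; edgeR adjusted P = 0.362). At 55.7% GC, it fell to 0.15 and 0.19 after correction, and it was 0.13 and 0.12 without Control replicate 1 but 0.63 and 0.62 without Control replicate 2. Yeats4 was at 61.9 and 67.1 CPM in Control, 76.1, 74.8 and 57.8 CPM in Zzz3 auxin and 68.7, 74.1 and 66.0 CPM in Yeats2 auxin. Its groups overlapped, and the log2 fold change was 0.11 in either comparison (95% interval -0.19 to 0.42 in Zzz3 auxin and -0.19 to 0.41 in Yeats2 auxin).

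**Figure D4:**
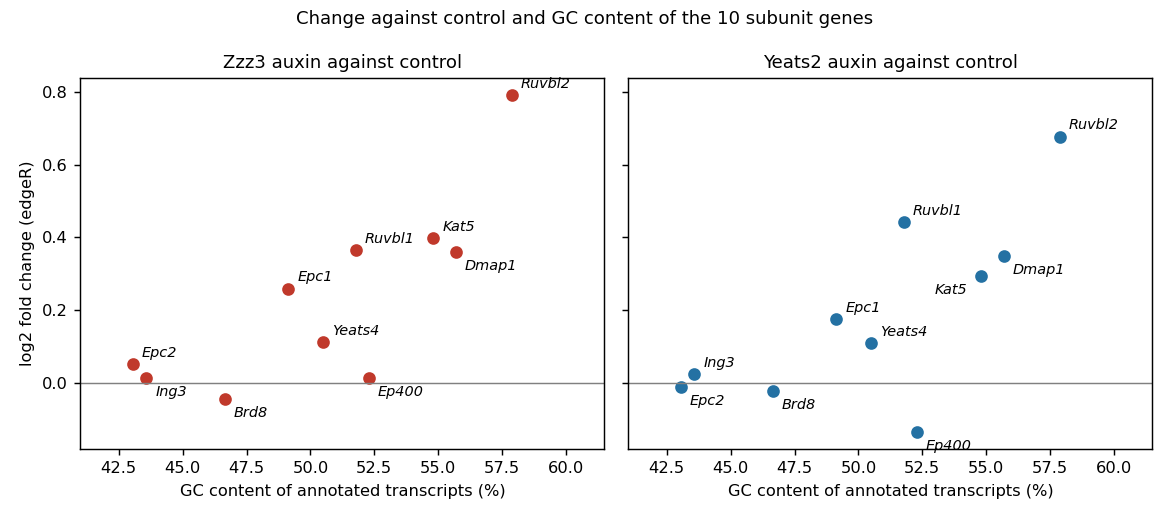
Log2 fold change against control (y axis, edgeR, uncorrected) of each subunit by the GC content of its annotated transcripts in percent (x axis), for Zzz3 auxin (left) and Yeats2 auxin (right). The GC-rich Ruvbl2, Dmap1 and Kat5 lie higher than the GC-poor Epc2, Ing3 and Brd8, with Ep400 below the others of similar GC content.

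Across the 10 subunits the uncorrected log2 fold change followed GC content, with Pearson's r of 0.79 in Zzz3 auxin and 0.72 in Yeats2 auxin. These are descriptions over genes that share the same libraries and controls. After correction r was 0.22 and 0.32. For the 6 subunits above the median GC content of tested genes (49.4%) the median log2 fold change was 0.36 and 0.32, against 0.03 and 0.01 for the 4 below it. At an unadjusted P under 0.05, 2 of 10 subunits (Ruvbl1 and Ruvbl2) remained in each comparison after correction, against 16.8% and 13.2% of all genes. Called by edgeR after correction was none of the 10 in either comparison, against 1.11% and 0.821% of all genes.

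No subunit was called between the 2 depletions. Compared directly, Yeats2 auxin and Zzz3 auxin had none of the 10 called by edgeR, where 0% of all genes were called, none at an unadjusted P under 0.05, against 6.25% of all genes, and none called by DESeq2, which called 0.0171% of all genes. No subunit was higher or lower in every library, against 5.25% and 5.82% of all genes, and after correction none had an unadjusted P under 0.05, against 7.37%. Changes were above 0 for 3 of 10 subunits, against 47.8% of all genes. The log2 fold change of Yeats2 auxin over Zzz3 auxin lay between -0.15 (Ep400, 95% interval -0.42 to 0.12) and 0.08 (Ruvbl1, -0.18 to 0.33), with a median of -0.04 beside -0.01 for all genes. Its interval was widest for Ruvbl2 (-0.60 to 0.37), so that differences of this size were not detectable.

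The profile of Kat5 over the 8 libraries, as log2 CPM centred on its mean, was nearest to those of Stx6, Ppm1m and Ptcd1 among 10432 genes, at root mean square distances of 0.0455, 0.0485 and 0.0502. Among the subunits its nearest was Dmap1, at 0.109. Epc2 and Ing3 were the closest pair of subunits, at 0.0660, whereas the nearest profile to Ruvbl2, that of Dmap1, was 0.254 away. Dmap1 and Ruvbl1 were each other's nearest, at 0.0954, and Epc1 and Yeats4 were nearest to Epc2 at 0.0962 and 0.0854. Brd8 was nearest to Yeats4 at 0.132 and Ep400 to Brd8 at 0.148.

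None of 9 other TIP60 subunit genes was called by edgeR in either comparison, against 0.753% and 0.445% of all genes, and 3 and 2 of them had an unadjusted P under 0.05, against 21.7% and 14.6% of all genes. Vps72, which encodes the H2A.Z-binding YL1, had the largest value in Zzz3 auxin, with a mean of 19.7 CPM in Control, 31.4 CPM in Zzz3 auxin and 25.5 CPM in Yeats2 auxin and a log2 fold change of 0.67 (edgeR adjusted P = 0.0762) and 0.38 (edgeR adjusted P = 0.324). It was called with DESeq2, without the filter and without Zzz3 auxin replicate 2. Morf4l2, encoding the chromodomain-lacking relative of MRG15, had -0.35 and -0.43, and Mbtd1, encoding a reader of methylated H4, had -0.41 and -0.19.

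None of 6 SRCAP and H2A.Z genes was called by edgeR in either comparison, against 0.753% and 0.445% of all genes. At an unadjusted P under 0.05 there were 4 and 3 of the 6, against 21.7% and 14.6% of all genes. Only 1 of these was higher each time. Anp32e, the chaperone that removes H2A.Z, had -0.73 and -0.18, Znhit1 0.63 and 0.58, and Actr6 -0.46 and -0.31. Of 14 INO80 and R2TP genes none was called by edgeR in either comparison, against 0.753% and 0.445% of all genes. At an unadjusted P under 0.05 there were 2 and 1, against 21.7% and 14.6% of all genes. The largest values were those of Ino80b (0.98 and 0.64), Mcrs1 (0.83 and 0.55) and Uchl5 (-0.39 and -0.09). Znhit1, Ino80b and Mcrs1 are GC-rich (58.3%, 61.2% and 57.2%) and Actr6 and Uchl5 are GC-poor (39.8% and 41.7%). DESeq2 called Actr6 (adjusted P = 0.0297) and Ino80b (adjusted P = 0.0107) in Zzz3 auxin, where it called 8.21% of the genes it gave an adjusted P. In Yeats2 auxin, where it called 3.02% of such genes, it called none of these 6 and 14 genes.

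Among 10 paralogues of the subunits, edgeR called none in either comparison, against 0.753% and 0.445% of all genes. An unadjusted P under 0.05 was found for 2 and 1 of the 10, against 21.7% and 14.6% of all genes. The nearest to the threshold was Kat8, the MYST acetyltransferase of the MSL and NSL complexes, at 27.9 CPM in Control, 41.2 CPM in Zzz3 auxin and 36.7 CPM in Yeats2 auxin on average. Its log2 fold change was 0.56 (edgeR adjusted P = 0.0655) and 0.40 (edgeR adjusted P = 0.192), beside 0.40 and 0.29 for Kat5, a difference between genes that was not tested. Kat8 was called in Zzz3 auxin with DESeq2, without the filter, after the correction and without Zzz3 auxin replicate 2. Mllt1 had 0.36 and 0.13, and Ing2 had -0.36 and -0.22.

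Efs, Zfp827, Usp17la (Dub1) and Guca1a were taken up because the study followed them as putative TIP60 targets. Of these 4 genes, 2 were expressed highly enough to be tested. Efs, an adaptor of SRC kinases, was called in Zzz3 auxin. Its mean was 3.47 ± 0.161 CPM (SD, n = 2) in Control, 9.12 ± 2.09 CPM (n = 3) in Zzz3 auxin and 5.39 ± 0.692 CPM (n = 3) in Yeats2 auxin, with no overlap between the 3 groups. The log2 fold change was 1.38 ± 0.24 (SE; edgeR adjusted P = 0.0368) in Zzz3 auxin, 0.64 ± 0.24 (edgeR adjusted P = 0.252) in Yeats2 auxin and -0.75 ± 0.20 (edgeR adjusted P = 0.779) in Yeats2 auxin against Zzz3 auxin. The call was lost without Control replicate 1 (edgeR adjusted P = 0.458), Control replicate 2 (0.0917), Zzz3 auxin replicate 1 (0.0680) or any of the Yeats2 auxin libraries (0.0645 to 0.0875), with only the 2 groups fitted (0.178) and with the replicate number as a block (0.0764). At 59.8% GC its log2 fold change was 0.96 after correction (edgeR adjusted P = 0.0391). Zfp827 had -0.12 and -0.18, Usp17la was below the filter and Guca1a had no read in any library.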

How the data were processed

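The authors deposited raw counts of reads per Ensembl gene for each library. Per the labels and methods, total RNA was ribodepleted (though the labels also name polyA RNA), prepared with a stranded kit, aligned to mm10 with STAR 2.5.3a and counted with HTSeq 0.6.1p1. The 5 tally lines of each file were left out, and no column belonged to another series. Names, GC content and lengths came from GENCODE M21 (Ensembl 96), in which 260 of 55401 genes had no entry.

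Counts were filtered with filterByExpr, TMM-scaled and fitted over all 8 libraries with edgeR 4.0.16 (R 4.3.3; robust quasi-likelihood test, two-sided), with Benjamini-Hochberg adjustment over 17532 genes and calls at adjusted P under 0.05. Alternatives were DESeq2 1.42.0 (Wald test), median-of-ratios size factors, no filter, only the 2 groups compared, the replicate number as a block, the correction and leaving out each library. The correction removed each library's lowess trend (span 0.3) on GC content and on exon length through offsets. Scripts were tested on simulated counts. Same-numbered libraries did not deviate together (r from -0.34 to 0.31), so replicate numbers were not treated as pairs. Differently numbered libraries of different groups had r from -0.37 to 0.37. Values of the 2 controls are equal and opposite by construction. Control replicate 2, Zzz3 auxin replicate 3 and Yeats2 auxin replicate 2 had more non-unique alignments (51.7%, 50.6% and 51.2%) than the rest (45.6% to 47.8%). This likeness across groups was not modelled. All subunits were named, and of each related list the genes called in a comparison with control or else the 3 with the largest change. Members, lists and rules were chosen with earlier results of these data known. Profile distances took genes averaging 5 CPM or more, with 0.5 added to CPM.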

Additional observations from a re-analysis of the deposited data

How the results depend on the processing

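No subunit was called in any fit that left out a library. The number of all genes called was far less stable. In Zzz3 auxin against control it was 1105 with DESeq2, 1542 without the filter, 0 with only the 2 groups (edgeR, 2606 at an unadjusted P under 0.05), 42 with the replicate block and 0 to 841 when 1 library was left out. In Yeats2 auxin against control it was 417 with DESeq2, 553 without the filter, 454 with only the 2 groups, 32 with the replicate block, 144 after the correction and 0 to 217 when 1 library was left out. In the direct comparison it was 3 with DESeq2, 117 without the filter and 0 to 1 when 1 library was left out. Subunits called were 1 with DESeq2 and 1 without the filter in Zzz3 auxin and 1 without the filter in Yeats2 auxin, Ruvbl2 each time. The cause was not tested.

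The replicate block called no subunit and raised the median of the subunits to 0.22 in Yeats2 auxin. When 1 library was left out, the median ranged from 0.091 to 0.29 in Zzz3 auxin, 0.088 to 0.18 in Yeats2 auxin and -0.076 to 0.043 in the direct comparison.

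Several subunits' log2 fold changes changed sign. In Zzz3 auxin, Ep400 was -0.048 with the replicate block and -0.14 after the correction. In Yeats2 auxin, Brd8 was 0.00063 without the filter and 0.027 after the correction, and Epc2 was 0.0099 without the filter, 0.0029 with only the 2 groups, 0.067 with the replicate block and 0.13 after the correction. In the direct comparison, Yeats4 was 0.0016 with DESeq2, 0.0020 with median-of-ratios size factors, 0.011 without the filter and 0.0081 with the replicate block, Dmap1 was 0.0024 without the filter and 0.044 after the correction, and the correction gave -0.030 for Ing3 and 0.029 for Ruvbl2. When 1 library was left out, ranges that crossed 0 were, in Zzz3 auxin, -0.025 to 0.067 (Ep400), -0.054 to 0.20 (Epc2) and -0.13 to 0.18 (Ing3). In Yeats2 auxin they were -0.042 to 0.0010 (Brd8), -0.021 to 0.0017 (Epc2) and -0.023 to 0.062 (Ing3). In the direct comparison they were -0.11 to 0.066 (Yeats4), -0.24 to 0.067 (Epc1), -0.20 to 0.055 (Epc2), -0.12 to 0.084 (Dmap1), -0.14 to 0.17 (Ing3) and -0.27 to 0.16 (Ruvbl2). Of the subunits' log2 fold changes under the other settings, 161 kept direction and side of the threshold, 16 changed sign and 3 passed the threshold.

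Control replicate 1 (-0.51) and Zzz3 auxin replicate 3 (0.37) stood apart in their GC trend, at opposite ends. Control replicate 2 (-0.06) lay near the remaining libraries. In the main fit the intervals of the subunits' changes against control reached from -0.44 to 1.35 on the log2 scale, so that small changes were not detectable. Reads per subunit were fewest, at 522, for Ing3 in Zzz3 auxin replicate 3. Intervals cover the spread between these libraries only.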
